A study of Mus musculus with 5 samples.

Results

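Head-to-head gene pairs are neighbouring genes on opposite strands that are transcribed away from each other, so that the stretch between their 5′ ends serves as a promoter for both. They were chosen from the mouse annotation by position alone, as autosomal protein-coding genes whose annotated 5′ ends (transcription start sites, TSSs) lay at most 1000 bp apart on mm9 and whose bodies did not overlap. This gave 789 pairs formed by 1562 of 21418 autosomal protein-coding genes (7.29%), with 16 genes in 2 pairs each. A region was the span between the 2 TSSs plus 1 kb on each side, and it was set beside the 19856 other autosomal protein-coding promoters, taken as the TSS with 1 kb on each side. The pair with the largest distance inside the limit, Btf3l4/Txndc12, had its TSSs 987 bp apart and held no peak, and the next pair outside it, Nacc1/Trmt1, had its TSSs 1004 bp apart and held 2.1 RPM (reads-per-million) in the Cxxc1-deficient H3K4me3 list and no WT peak.

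The study asked what role Cxxc1 has in T-cell development in the thymus. This included its part in H3K4 trimethylation (H3K4me3) in CD4+CD8+ double-positive (DP) thymocytes. It also sequenced RNA of DP thymocytes, which was not used here. The data used here come from its 5 ChIP-seq libraries from thymus, 1 per group. These were Cxxc1 ChIP and H3K4me3 ChIP from wild-type (WT) and Cxxc1-deficient cells, and WT input. Per the methods, WT mice were Cxxc1 fl/fl and Cxxc1-deficient mice were Cxxc1 fl/fl carrying hCD2-Cre, which also deletes the gene in other immune cells, so the groups differ in the Cre transgene as well as in Cxxc1. The sample titles call the deficient libraries KO while their genotype label reads Cxxc1+/-, the titles and methods were followed here, and the mice were a few weeks old per the methods unless specified. Whether cells of several mice were pooled for a library is not given in the sources used here.

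3 deposited lists were used, for WT H3K4me3, Cxxc1-deficient H3K4me3 and Cxxc1. Each holds the 200-bp windows of called peaks with their RPM, and the Cxxc1 list carries no genotype in its labels. The methods describe Cxxc1 peaks as called in WT cells with the Cxxc1-deficient ChIP and the input as controls. The lists held 14237 WT, 2979 Cxxc1-deficient and 4352 Cxxc1 peaks. Low RPM values were multiples of 0.1056 to 0.10575 in the WT list and of 0.1056 to 0.1062 in the Cxxc1-deficient list, the worth of 1 sequenced tag, which places both H3K4me3 libraries between 9.42 and 9.47 M tags and the Cxxc1 library between 9.1 and 9.23 M. A region without a listed peak has an unknown signal below the calling limit, not a signal of 0. With 1 library per group no difference between genotypes could be tested, and the 95% Wilson intervals given in parentheses treat regions as units and cover counting error only. Of 10 listed DP thymocyte markers, 9 were found among the autosomal genes used and Ptcra was not. Of these 9, Lck, Cd8b1, Cd8a and Cd3e had a WT H3K4me3 peak within 1 kb of the TSS. Rag1, Rag2, Cd4, Themis and Dntt did not. Of the markers of other cells, 1 of 5 B cell genes (Ebf1), 0 of 4 myeloid genes and 1 of 4 epithelial genes (Cdh1) had one.

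Bidirectional promoters are common in mammalian genomes, usually lie in CpG islands without a TATA box, and often serve pairs of housekeeping genes of DNA repair, translation and mitochondria. H3K4me3 marks nucleosomes around active and poised start sites. Cxxc1 (CFP1) binds unmethylated CpG through its CXXC zinc finger and brings the Setd1 H3K4 methyltransferase to CpG islands.

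The DNA between the TSSs of a few pairs is printed here to show the stretch that both genes share, on the plus strand of mm9, with every CpG, the dinucleotide that Cxxc1 recognises, in capitals. The pairs are Ccdc92/Zfp664 with the highest WT signal outside the neighbourhood of a very strong peak, Cdc26/Prpf4 with a higher value in the Cxxc1-deficient list, Ndufaf2/Ercc8 listed without Cxxc1 only, Nae1/Car7 and Nr1h3/Acp2 with a Cxxc1 peak, Wrap53/Trp53 and Brca1/Nbr1 listed in both genotypes, the mitochondrial Cox4i1 with its partner, and Col4a4/Col4a3 listed in none.
Ccdc92/Zfp664 (chr5:125342795-125343060): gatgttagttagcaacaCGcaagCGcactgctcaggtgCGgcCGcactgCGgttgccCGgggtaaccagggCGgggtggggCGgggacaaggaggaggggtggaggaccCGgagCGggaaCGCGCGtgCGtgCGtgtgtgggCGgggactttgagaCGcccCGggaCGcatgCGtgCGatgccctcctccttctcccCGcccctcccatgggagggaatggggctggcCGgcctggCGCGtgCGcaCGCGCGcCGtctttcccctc
Cox4nb/Cox4i1 (chr8:123192013-123192189): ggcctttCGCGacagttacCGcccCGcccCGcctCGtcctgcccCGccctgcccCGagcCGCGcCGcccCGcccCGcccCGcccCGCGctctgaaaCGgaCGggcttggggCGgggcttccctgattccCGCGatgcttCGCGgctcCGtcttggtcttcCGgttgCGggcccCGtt
Cdc26/Prpf4 (chr4:62069677-62069830): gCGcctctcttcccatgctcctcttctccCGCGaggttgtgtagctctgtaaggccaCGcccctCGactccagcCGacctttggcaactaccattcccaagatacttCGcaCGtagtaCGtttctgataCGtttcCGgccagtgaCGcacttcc
Ndufaf2/Ercc8 (chr13:108948820-108948924): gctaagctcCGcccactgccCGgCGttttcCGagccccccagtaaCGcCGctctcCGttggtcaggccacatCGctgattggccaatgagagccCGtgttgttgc
Nae1/Car7 (chr8:107058538-107058599): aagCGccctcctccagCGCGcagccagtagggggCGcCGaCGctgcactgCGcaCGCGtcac
Nr1h3/Acp2 (chr2:91042992-91043041): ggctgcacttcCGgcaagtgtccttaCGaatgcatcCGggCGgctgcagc
Wrap53/Trp53 (chr11:69393758-69393860): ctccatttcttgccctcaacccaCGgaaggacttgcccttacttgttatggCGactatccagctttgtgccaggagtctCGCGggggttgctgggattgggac
Brca1/Nbr1 (chr11:101413270-101413462): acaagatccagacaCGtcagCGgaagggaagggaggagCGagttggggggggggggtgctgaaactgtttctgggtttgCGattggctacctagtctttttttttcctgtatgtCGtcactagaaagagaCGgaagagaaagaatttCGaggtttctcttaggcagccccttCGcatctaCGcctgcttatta
Col4a4/Col4a3 (chr1:82583425-82583495): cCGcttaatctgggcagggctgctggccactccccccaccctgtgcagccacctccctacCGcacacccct

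The CpG content of these stretches differed widely, from 30 CpGs in 266 bases in Ccdc92/Zfp664 and 27 in 177 bases in Cox4nb/Cox4i1 to 4 in 103 bases in Wrap53/Trp53 and 2 in 71 bases in Col4a4/Col4a3. The pairs were CpG-rich. A CpG island, here any 500-bp stretch of 55% GC or more in which CpGs reached 0.65 of the number its base composition predicts, was found in 735 of 789 pair regions, 93.2% (91.2 to 94.7%), against 53.3% (52.6 to 54.0%) of other promoters and 54.8% of all regions. The median number of CpGs in the 1 kb around the midpoint was 69 (quartiles 56 and 85), while the other promoters had a median of 37 (12 and 68) around the TSS. The TSSs lay close together, with a median distance of 141 bp (quartiles 73 and 271 bp), and 511 pairs were within 200 bp while 81 were over 500 bp.

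Short motifs were searched on both strands in the 300 bp centred on each midpoint or TSS. These windows are not alike in the pairs and the other promoters. At a midpoint the window holds DNA between the TSSs, upstream of both genes, and in close pairs also the starts of both. At another promoter it holds upstream and transcribed DNA of its gene. The part of this difference in the motif shares was not tested. The ETS factor motif CCGGAAGT was found in 13.9% of pairs (11.7 to 16.5%), 4.25% of other promoters (3.98 to 4.54%) and 4.62% of all regions. This difference was also present among regions with at least 60 CpGs, where 14.1% of pairs (11.4 to 17.3%) and 7.03% of other promoters (6.43 to 7.68%) held it. The CCAAT box CCAAT was found in 42.6% of pairs (39.2 to 46.1%), 35% of other promoters (34.3 to 35.6%) and 35.3% of all regions, and among CpG-rich regions in 43.2% (39 to 47.4%) and 29.8% (28.7 to 31%). The NRF1 motif GCATGCGC, the binding letters of a regulator of mitochondrial genes, was present in 6.72% of pairs (5.17 to 8.68%), 2.89% of others (2.67 to 3.13%) and 3.04% of all regions, but in CpG-rich regions the intervals of 6.65% (4.82 to 9.11%) and 5.36% (4.84 to 5.94%) overlapped. The GC box GGGCGG changed its order with the CpG content. It was in 66.8% of pairs (63.4 to 70.0%), 44.5% of others and 45.3% of all regions, and in CpG-rich regions in 75.7% of pairs (71.8 to 79.1%) and 82.2% of others (81.3 to 83.1%). TATAAA was in 4.82% of pairs (3.53 to 6.54%), 11.4% of others (10.9 to 11.8%) and 11.1% of all regions. The E-box CACGTG was in 10.4% of pairs (8.45 to 12.7%), 7.07% of others (6.72 to 7.43%) and 7.19% of all regions, and the cAMP response element TGACGTCA in 4.44% (3.21 to 6.11%), 2.05% (1.87 to 2.26%) and 2.15%. In CpG-rich regions TATAAA was in 2.66% of pairs and 3.18% of others, with overlapping intervals. The E-box was there in 11.4 and 9.6%, and the cAMP response element in 4.94 and 3.41%, also with overlapping intervals. None of these motifs contains another. A match to such letters is a description of the sequence and not a binding site. The ETS motif was about as frequent in pairs with a WT peak (14.3%) as in pairs without (13.4%), and their intervals overlapped. The GC box was in 71.6% (67.5 to 75.4%) of pairs with a WT peak and 58.6% (52.8 to 64.1%) of pairs without, with intervals apart. TATAAA was in 3.22% (1.99 to 5.17%) and 7.53% (5.03 to 11.1%), with overlapping intervals, as were those of the remaining motifs.

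In WT DP thymocytes, H3K4me3 peaks lay at most of the pairs. A WT peak overlapped 497 of 789 pair regions, 63.0% (59.6 to 66.3%), against 5535 of 19856 other promoters, 27.9% (27.3 to 28.5%), and 29.2% of all regions. Without Cxxc1 the list held a peak at 109 pairs, 13.8% (11.6 to 16.4%), at 947 other promoters, 4.77% (4.48 to 5.07%), and at 5.12% of all regions. Cxxc1 peaks were rare in both sets, at 13 pairs, 1.65% (0.965 to 2.80%), at 326 other promoters, 1.64% (1.47 to 1.83%), and at 1.64% of all regions. The H3K4me3 shares of pairs and other promoters were thus apart in both genotypes, and the Cxxc1 shares were not. With 2 kb taken for every region, which removes the longer span of the pairs, the WT shares were 63 and 27.9%. Among the autosomes the WT share of pairs ran from 40.7% on chromosome 14 to 76.3% on chromosome 5.

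**Figure D1:**
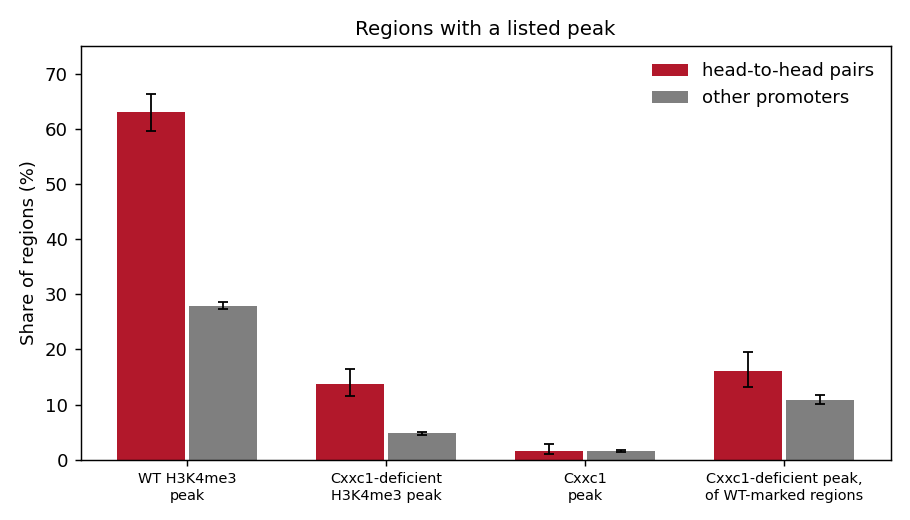
Share of head-to-head pairs and of other promoters (percent, y axis) that overlapped a peak in the WT H3K4me3, Cxxc1-deficient H3K4me3 and Cxxc1 lists, with 95% Wilson intervals as error bars. The pairs stand above the other promoters in both H3K4me3 lists (63.0 against 27.9% and 13.8 against 4.77%), and the Cxxc1 bars are level at 1.65 and 1.64%.

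By genotype, 417 pairs (52.9%) were listed in WT only, 80 (10.1%) in both genotypes, 29 (3.68%) without Cxxc1 only and 263 (33.3%) in neither. Of the 497 WT-marked pairs, 80 also had a Cxxc1-deficient peak, 16.1% (13.1 to 19.6%), against 603 of 5535 other promoters, 10.9% (10.1 to 11.7%), and 11.3% of all WT-marked regions. Most WT-marked pairs were therefore absent from the Cxxc1-deficient list, as most other WT-marked promoters were, and the share still listed was higher in the pairs, with intervals apart, which overlapped once each list was limited to its stronger 50% of peaks (11.1%, 8.27 to 14.8%, against 7.82%, 6.96 to 8.76%). In the 77 of 80 pairs where the peaks of both genotypes overlapped each other, the mark was listed over the same DNA. Among pairs with no WT peak, 29 of 292 had a Cxxc1-deficient peak, 9.93% (7 to 13.9%), while 2.40% (2.16 to 2.67%) of other promoters with no WT peak did.

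Signal within the listed peaks was summed over the windows of a region. The 497 marked pairs held a median of 2.6 RPM in WT (95% interval of the median 2.5 to 2.6, range 0.3 to 6.5), about 25 tags in 6 windows, and other marked promoters held 2.1 RPM (2.1 to 2.2) in 5 windows. With 2 kb for every region the medians were 2.5 and 2.1 RPM. The median per listed window was 0.414 RPM in pairs and 0.400 RPM in other promoters. In the Cxxc1-deficient list the 109 marked pairs held a median of 1.8 RPM (1.8 to 2, about 17 tags), and the other promoters 1.7 RPM.

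The share of WT-marked pairs that was still listed without Cxxc1 was larger in number in each higher class of WT signal. It was 12.8% (7.46 to 21.0%) of pairs below 2 RPM, 16% (11.9 to 21.2%) at 2.0 to 2.9 RPM, 17.4% (12 to 24.6%) at 3.0 to 3.9 RPM and 22.2% (10.6 to 40.8%) at 4 RPM or more, with overlapping intervals, so that an order among pairs was not detectable at these numbers. The other promoters of the same classes had 9.21% (8.06 to 10.5%), 10.3% (9.18 to 11.6%), 15.4% (13.1 to 18.1%) and 23.1% (16.4 to 31.5%), where the intervals of the lowest and the highest class were apart. The intervals of pairs and other promoters were apart in the class of 2.0 to 2.9 RPM and overlapped in the remaining classes, so the larger share of pairs still listed was seen over all classes together and in that class.

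At the 80 pairs listed in both genotypes, the median WT and Cxxc1-deficient values were 2.55 and 1.85 RPM. The Cxxc1-deficient value was lower at 64 pairs, higher at 14 and equal at 2, and the median ratio of deficient to WT was 0.723 (0.607 to 0.800), close to 0.737 (0.714 to 0.765) at other promoters. These pairs had to pass peak calling in both libraries, so the ratio describes only peaks that stayed above the limit. RPM values are also scaled to the total of each library. The paper reports a lower total H3K4me3 level in Cxxc1-deficient DP thymocytes by ELISA, and such a change is not measured by this ratio. Exact Poisson intervals of the 2 tag counts, which cover listed windows only, were apart, with WT higher, at 5 of the 80 pairs. They were so at 70 of 594 other promoters listed in both genotypes with signal in each. These 5 pairs were chosen after their values were seen. They were Mob3a/Izumo4 with 3.8 RPM in WT and 0.6 RPM without Cxxc1, Nek8/Tlcd1 with 2.5 and 0.6, Arl16/Hgs with 2.4 and 0.3, Banf1/Eif1ad with 4.3 and 1.5, and 4632404H12Rik/Ube2q1 with 3.0 and 1.0. No pair and 1 other promoter had intervals apart with the Cxxc1-deficient value higher. At the 5 named pairs the Cxxc1-deficient value came from 1 to 4 listed windows and the WT value from 7 to 9. Signal in unlisted windows is unknown, so these intervals do not measure the whole difference in signal.

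**Figure D2:**
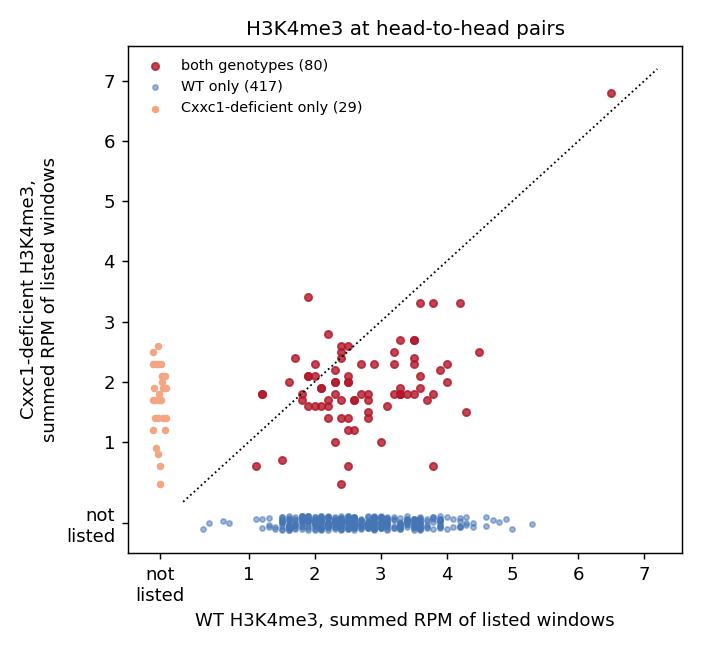
Summed H3K4me3 (RPM) of each pair with a peak, WT on the x axis and Cxxc1-deficient on the y axis, where the strips marked as not listed hold the 417 pairs listed in WT only and the 29 listed without Cxxc1 only, spread at random across the strip. Of the 80 pairs listed in both, 64 lie below the dotted line of equal values, 14 above it and 2 on it, and Hjurp/Trpm8 stands apart at 6.5 and 6.8 RPM.

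The peaks at most marked pairs covered both starts and reached into both genes. In WT a single peak covered both TSSs of 454 of 497 marked pairs, 91.3% (88.5 to 93.5%), while a peak covered the TSS of 86.6% (85.6 to 87.4%) of other marked promoters. Listed windows lay on both flanks of 426 pairs, 85.7% (82.4 to 88.5%), and of 81.3% (80.3 to 82.3%) of other promoters, so the pairs were a little above the general share in both. The mean signal was 1.11 RPM on the 1 kb of the minus-strand gene, 0.411 RPM between the TSSs and 1.14 RPM on the 1 kb of the plus-strand gene. The strand names carry no order between the genes of a pair, so these means are alike by construction. Within a pair the smaller flank held a median of 35.7% of the signal of both flanks (quartiles 24.2 and 43.8%), against 32.1% (17.6 and 42.3%) at other promoters, so single pairs were nearly as lopsided as those. Other promoters had a set direction, with a mean of 0.868 RPM upstream and 1.33 RPM downstream of the TSS and a higher value downstream in 69.1% (67.9 to 70.3%).

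By position, WT windows were listed at the midpoint of 86.3% of marked pairs, at 71.6% 400 bp to the minus side and at 75.9% 400 bp to the plus side. At other marked promoters the shares were 77.8% at the TSS, 48.6% 400 bp upstream and 73.9% 400 bp downstream. At 1000 bp the pairs had fallen to 24.9 and 27.4%, whereas other promoters had 17.9% upstream and 38.4% downstream. Both sides of a pair are transcribed, so its average profile has no direction by construction, and it is shown for its reach only. The median width of the widest peak was 1600 bp in both sets.

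**Figure D3:**
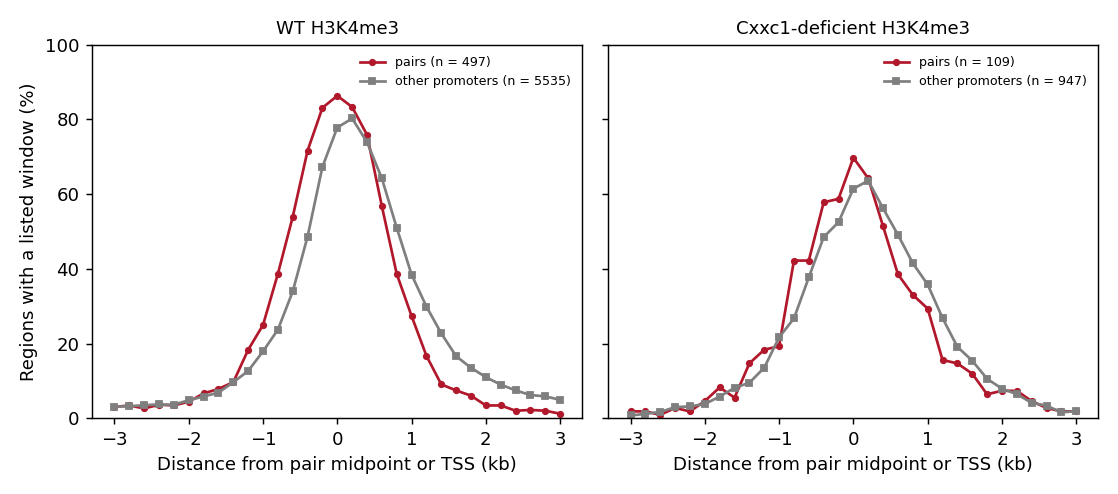
Share of marked regions with a listed window (percent, y axis) by distance from the midpoint of a pair or from the TSS of another promoter (kb, x axis, with the plus-strand gene or the transcribed side to the right), for WT and Cxxc1-deficient H3K4me3. In WT the pairs have 71.6% at 400 bp on the minus side and 75.9% on the plus side, where both sides are transcribed, and the other promoters have 48.6% upstream and 73.9% downstream.

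Without Cxxc1, a single peak covered both TSSs of 83 of 109 marked pairs, 76.1% (67.3 to 83.2%), and windows lay on both flanks of 72, 66.1% (56.8 to 74.3%). Both shares were below those of WT pairs, with intervals apart, and close to those of other promoters, where a peak covered the TSS of 75.9% (73.1 to 78.5%) and windows lay on both flanks of 69.1% (66.0 to 71.9%). The Cxxc1-deficient peaks at pairs also held fewer tags, with a median of 17 against 25, and the part of this in the shares was not tested. Of the 66 pairs with WT windows on both flanks and a peak in both genotypes, 47 had Cxxc1-deficient windows on both flanks, 71.2% (59.4 to 80.7%). The mean signal of Cxxc1-deficient peaks was 0.822 RPM on the minus flank, 0.306 RPM between the TSSs and 0.777 RPM on the plus flank. Within a pair the smaller flank held a median of 28.6% of both flanks (quartiles 0 and 41.7%), lower than in WT, and at other promoters it was also 28.6% (0 and 41.4%).

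Pairs with distant TSSs were marked more often than close ones. The WT share was 58.2% (52.5 to 63.7%) of 292 pairs at 1 to 100 bp, 61.6% of 219 at 101 to 200 bp and 59.5% of 111 at 201 to 300 bp. It was 74.4% (64.3 to 82.5%) of 86 pairs at 301 to 500 bp and 76.5% (66.2 to 84.4%) of 81 pairs at 501 to 1000 bp. The classes from 301 bp therefore had intervals above that of the class of 1 to 100 bp, and the number of marked pairs in each class was the same with 2 kb for every region (170, 135, 66, 64 and 62). The median WT signal rose in the same order from 2.4 through 2.5, 2.8 and 2.8 to 3.15 RPM, and with regions of 2 kb from 2.4 through 2.5, 2.6 and 2.6 to 2.8 RPM. This order went against the CpG content, whose class medians were 69, 72, 68, 65.5 and 55 CpGs per kb. A single peak covered both TSSs in 95.3% of marked pairs at 1 to 100 bp and in 74.2% at 501 to 1000 bp. The share still listed without Cxxc1 showed no order, with 11.2% (7.27 to 16.8%), 19.3% (13.5 to 26.7%), 24.2% (15.5 to 35.8%), 17.2% and 12.9%.

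**Figure D4:**
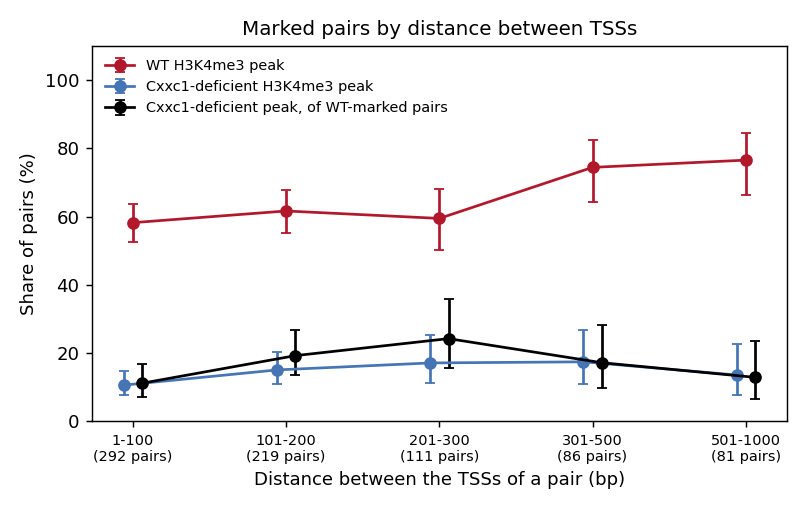
Share of pairs with a WT H3K4me3 peak, share with a Cxxc1-deficient peak, and share of WT-marked pairs that also had a Cxxc1-deficient peak (percent, y axis), by distance between the TSSs (bp, x axis), with 95% Wilson intervals. The WT share is 58.2% in the class of 1 to 100 bp and 76.5% in the class of 501 to 1000 bp, and the share of WT-marked pairs still listed lies between 11.2 and 24.2%.

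The WT share was higher at higher CpG content in both sets, and the sets also differed at like CpG content. In pairs the WT share was 19.2% (8.51 to 37.9%) below 20 CpGs per kb, 50% (34.8 to 65.2%) at 20 to 39, 58.8% (51.9 to 65.4%) at 40 to 59, 63.9% (58.0 to 69.4%) at 60 to 79, 70.8% (63.4 to 77.3%) at 80 to 99 and 72.9% (63.3 to 80.8%) at 100 or more. In other promoters it was 4.08, 18.2, 39.1, 49.2, 56.5 and 59.8% in the same classes. In all 6 classes the interval of the pairs lay above that of other promoters. The Cxxc1-deficient share of pairs was 15.1% (10.8 to 20.7%) at 40 to 59 CpGs, 12.3% (8.87 to 16.7%) at 60 to 79 and 19.3% (13.9 to 26.0%) at 80 to 99, against 6.21% (5.42 to 7.10%), 8.13% (7.22 to 9.16%) and 10.1% (8.80 to 11.5%) of others. At 100 CpGs or more it was 9.38% (5.01 to 16.9%) and 8.15% (6.85 to 9.66%). Below 20 CpGs it was 7.69% (2.14 to 24.1%) and 1.01% (0.809 to 1.27%), and at 20 to 39 CpGs 10.5% (4.17 to 24.1%) and 3.92% (3.27 to 4.68%). The intervals of pairs and others were apart below 20, at 40 to 59 and at 80 to 99 CpGs, and overlapped in the remaining classes. The most CpG-rich pairs thus had the highest WT share and not the highest Cxxc1-deficient share, and of their WT-marked members 11.4% (5.91 to 21.0%) were still listed, with the other classes' intervals overlapping this one.

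**Figure D5:**
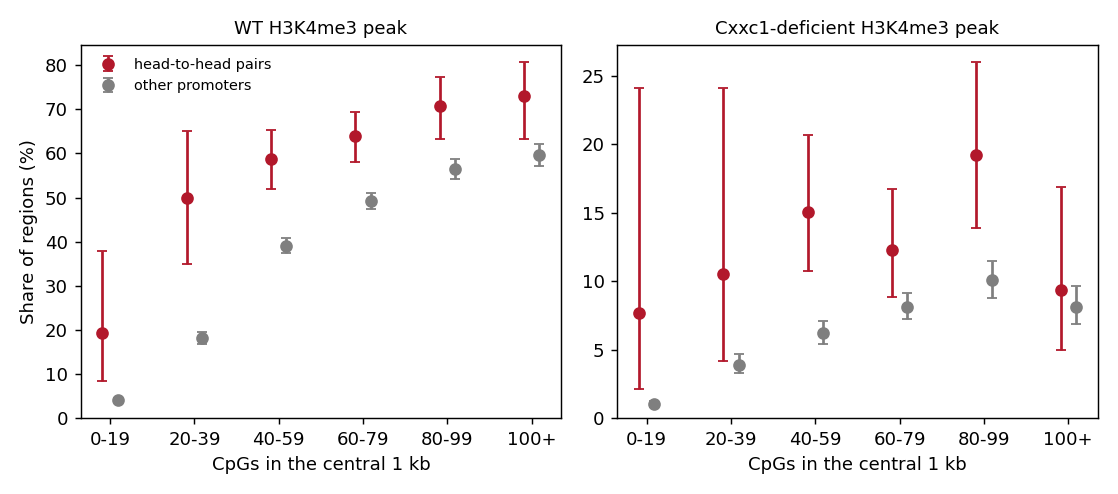
Share of pairs and of other promoters with a WT and with a Cxxc1-deficient H3K4me3 peak (percent, y axis) by the number of CpGs in 1 kb (x axis), with 95% Wilson intervals. The WT share of pairs goes from 19.2 to 72.9% and lies above that of other promoters (4.08 to 59.8%) in all 6 classes.

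The 8 pairs with the highest WT signal held 4.6 RPM or more, and 7 of them were listed in WT only, as were 417 of all 497 WT-marked pairs. The 8 include 2 overlapping entries of Ccdc92/Zfp664. Hjurp/Trpm8 on chromosome 1, the histone chaperone of centromeres beside the cold-sensing channel, held the highest values with 6.5 RPM in WT (exact Poisson interval 5.02 to 8.40) and 6.8 RPM without Cxxc1 (5.22 to 8.65). It lay within 30 kb of peaks of 46.4 RPM in WT, 37.1 RPM without Cxxc1 and 20.7 RPM in the Cxxc1 list, and it is the 1 pair region that overlapped a peak above 10 RPM, so its values are not those of an ordinary promoter. Next came Ccdc92/Zfp664, where 2 annotated Zfp664 entries start 267 and 319 bp from Ccdc92 (TSS at position 125342794 of chromosome 5) and held 5.0 and 5.3 RPM in WT, with 2.0 RPM on the Ccdc92 side, and no peak in the other lists. Zbtb5/1700055D18Rik held 4.9 RPM, and Gart/Son, a purine synthesis enzyme and a splicing cofactor with TSSs 554 bp apart, held 4.8 RPM (3.47 to 6.36) with 1.3 RPM on the Gart flank, 1.1 RPM between the TSSs and 2.4 RPM on the Son flank. Mau2/Sugp1, the cohesin loader subunit and a splicing factor, held 4.7 RPM, Nubp2/Spsb3 held 4.6 RPM and 1110008J03Rik/Ddx54, with an RNA helicase, held 4.6 RPM. Apart from Hjurp/Trpm8, none of these strongest pairs had a Cxxc1-deficient or a Cxxc1 peak. Among all 497 WT-marked pairs, 16.1% had a Cxxc1-deficient peak and 1.81% a Cxxc1 peak, so these few are near the general shares.

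Among pairs with the highest Cxxc1-deficient signal, WT was higher at some and lower at others. Cdc26/Prpf4 on chromosome 4, an anaphase-promoting complex subunit beside a U4/U6 splicing factor, held 1.9 RPM in WT (1.13 to 3.01) and 3.4 RPM without Cxxc1 (2.32 to 4.78). Hmmr/Nudcd2 held 2.2 and 2.8 RPM. Hjurp/Trpm8 is given above. At the other ones the WT value was the larger, with 3.8 and 3.3 RPM at Srgap2/Fam72a, 3.6 and 3.3 RPM at 2410002I01Rik/1810043H04Rik, 4.2 and 3.3 RPM at Lnx2/Polr1d, whose Polr1d is shared by RNA polymerases I and III, 3.3 and 2.7 RPM at Thap2/Zfc3h1 and 3.5 and 2.7 RPM at Sharpin/Maf1, a subunit of the linear ubiquitin ligase beside the repressor of RNA polymerase III. Of the deficient-list values only that of Hjurp/Trpm8 exceeded 3.4 RPM, and the intervals of both genotypes overlapped at Cdc26/Prpf4.

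The 29 pairs listed without Cxxc1 only held 0.3 to 2.6 RPM with a median of 1.8 RPM, and 1.81% of all regions were of this kind. Ndufaf2/Ercc8 was the highest, with 2.6 RPM (1.71 to 3.91) of which 0.9 RPM lay on the flank of Ndufaf2, a complex I assembly factor, 0.3 RPM between the TSSs and 1.4 RPM on the flank of Ercc8, which acts in transcription-coupled repair. Next were Tcta/Rhoa with 2.5 RPM and Top3a/Smcr8, Timm23/Parg and Fnip2/4930589L23Rik with 2.3 RPM each. Rhoa is a small GTPase of the cytoskeleton, Top3a a topoisomerase, Timm23 a channel of mitochondrial protein import and Parg the enzyme that removes poly(ADP-ribose). These values are near the median of listed peaks of that library (2 RPM per peak) and of WT peaks (2.3 RPM), and what the WT library held at these pairs below its calling limit is unknown.

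The 13 pairs with a Cxxc1 peak held 0.3 to 2.3 RPM of Cxxc1 with a median of 1.2 RPM. WT H3K4me3 peaks lay at 9 of them, 69.2% (42.4 to 87.3%), which overlaps the WT share of all pairs, and at 126 of 326 other promoters with a Cxxc1 peak, 38.7% (33.5 to 44.0%). Ndufa4/Phf14, a respiratory chain subunit beside a PHD finger protein, held 2.3 RPM of Cxxc1 and 2.5 RPM of WT H3K4me3. 1810020D17Rik/Rsf1, with a chromatin remodelling factor, held 1.7 and 3.6 RPM, 1110038D17Rik/Snrpd3, with a core snRNP protein, 1.6 and 1.9 RPM, Nr1h3/Acp2, the liver X receptor alpha beside a lysosomal phosphatase, 1.5 and 2.2 RPM, and Csnk2b/Gpank1, with the regulatory subunit of casein kinase 2, 1.1 and 1.2 RPM. Kdm4d/Cwc15 had 0.5 and 1.6 RPM and Anxa5/1810062G17Rik 0.3 and 2.4 RPM. None of these had a Cxxc1-deficient H3K4me3 peak. Prkar1b/Heatr2 (0.4 RPM of Cxxc1, 2.5 RPM of H3K4me3 in WT and 2 RPM without Cxxc1) and Lnx2/Polr1d (0.4 RPM of Cxxc1) were the 2 with a peak in all 3 lists. Their Cxxc1 values came from 1 listed window each, as did those of Kdm4d/Cwc15, Anxa5/1810062G17Rik and Deaf1/Eps8l2. With 2 kb for every region 11 pairs had a Cxxc1 peak. At A830093I24Rik/Pfn4 with 2.1 RPM, Nae1/Car7 with 1.9 RPM, BC088983/Fbxo8 with 1.2 RPM and Deaf1/Eps8l2 with 0.3 RPM of Cxxc1 no H3K4me3 peak was listed in either genotype. Nae1 is a subunit of the NEDD8-activating enzyme and Car7 a carbonic anhydrase. The median CpG content of pairs with a Cxxc1 peak was 63 CpGs per kb (quartiles 43 and 71). It was 72 (58 and 88) in pairs with a WT H3K4me3 peak, which include 9 of the 13, and 69 in all pairs. With 13 pairs and overlapping quartile ranges, a difference in CpG content was not detectable.

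Pairs known from textbooks of bidirectional promoters were listed by name, and 9 of 23 fitted the distance and overlap rule in this annotation. Of these 8 had a WT peak, 3 a Cxxc1-deficient peak and 0 a Cxxc1 peak. Over all 789 pairs the shares were 63.0, 13.8 and 1.65%. The 9 pairs were picked by name, and a difference from these shares was not tested. Wrap53/Trp53, a telomerase and Cajal body factor beside the tumour suppressor p53, held 2.0 RPM in WT (1.21 to 3.14) with 1.5 RPM of it on the Trp53 flank, and 2.3 RPM without Cxxc1 (1.46 to 3.53) with 1.0 and 1.3 RPM on its flanks. At Brca1/Nbr1, a repair gene beside an autophagy receptor, all 2.1 RPM of WT lay on the Nbr1 flank, and without Cxxc1 0.6 RPM lay on the Brca1 flank and 1.0 RPM on the Nbr1 flank. Ndufa2/Ik, of complex I and the spliceosome, held 2.0 and 2.1 RPM. At these 3 pairs the Poisson intervals of both genotypes overlapped. Among those listed in WT only, Pdcd10/Serpini1 held 3.0 RPM, Atm/Npat, the DNA damage kinase and the activator of histone genes, 2.6 RPM, Mrps12/Sars2 of mitochondrial translation 2.3 RPM and Mcm4/Prkdc, a replicative helicase subunit beside the kinase of end joining, 1.7 RPM. Col4a4/Col4a3, collagens of basement membranes, had no peak in any list.

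Several groups of basic cell functions were frequent among the pairs, which hold 7.29% of all genes. Of 105 genes of DNA replication and repair 29 were in pairs (27.6%), of 85 splicing and mRNA processing genes 22 (25.9%), of 89 oxidative phosphorylation genes 22 (24.7%) and of 77 mitochondrial ribosomal protein genes 16 (20.8%). The oxidative phosphorylation genes counted include both Cox4nb and Cox4i1, and whether Cox4nb acts in this function was not tested. WT peaks lay at 17 of the 29 repair genes in pairs (58.6%) and at 38.2% of repair genes outside pairs, at 16 of the 22 splicing genes (72.7%) and 57.1% outside, at 13 of the 22 oxidative phosphorylation genes and 47.8% outside, and at 10 of the 16 mitochondrial ribosomal genes and 45.9% outside. Beside them, 980 of the 1562 genes in pairs (62.7%) had a WT peak. In these groups the shares in pairs were higher in number than outside, and with so few genes their intervals overlapped. Cxxc1-deficient peaks lay at 215 of the 1562 genes in pairs. Among them were 6 of the 29 repair, 4 of the 22 splicing, 4 of the 22 oxidative phosphorylation and 1 of the 16 mitochondrial ribosomal genes in pairs. Outside pairs 6 of 76, 3 of 63, 9 of 67 and 5 of 61 genes of these groups had one.

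Within these groups, Xrcc3/Zfyve21, with the recombination gene, held 3.4 RPM in WT and 1.8 RPM without Cxxc1. In splicing, Hnrnpa2b1/Cbx3 held 3.9 RPM and Qpctl/Snrpd2 3.6 RPM, both in WT only. In mitochondria, Mrps18b/Ppp1r10 and Ncapd2/Mrpl51 held 3.1 RPM each, Sdha/Ccdc127, with a subunit of complex II, 2.9 RPM, and Cox4nb/Cox4i1 3.2 RPM, all in WT only. Of 81 cytosolic ribosomal protein genes 9 were in pairs and 5 of them marked in WT, against 54.2% outside pairs, among them Rpl36al/Mgat2 with 4.2 RPM and Med22/Rpl7a with 3.6 RPM. Of 41 proteasome genes 4 were in pairs and 2 were marked, against 45.9% outside, with 2.8 RPM at Ftsj3/Psmc5. Of 46 cell cycle and mitosis genes 8 were in pairs and 3 were marked, against 44.7% outside pairs, and of 51 chromatin modifiers 3 were in pairs and 2 were marked, against 62.5% outside, the highest being 5031425E22Rik/Mll5 with 4.2 RPM in WT.

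Core histone genes were the most frequent in pairs, with 27 of 67 genes (40.3%), and 2 of the 27 were marked in WT (7.41%, 2.06 to 23.4%) and none without Cxxc1. Both belong to the pair Hist2h2ac/Hist2h2be with 1.9 RPM, and it was the single marked one of 13 pairs made of 2 histone genes. Outside pairs 25% of core histone genes had a WT peak. Histone genes are near-identical copies, and per the methods reads that mapped to a single place were used, so the marked share of this group is uncertain, and the part of dropped reads in it was not tested.

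Of 53 thymocyte and T cell genes 2 were in pairs, 3.77% (1.04 to 12.8%), an interval that holds the 7.29% of all genes, and both were marked in WT and neither without Cxxc1. Smyd1/Cd8b1 on chromosome 6 (TSSs at 71272227 and 71272830, 603 bp apart) joins a muscle methyltransferase to the CD8 beta chain, a surface marker of DP thymocytes. Its region held 3.0 RPM in WT, with 0.7 RPM on the Smyd1 flank, 1.0 RPM between the TSSs and 1.3 RPM on the Cd8b1 flank, and it had 15 CpGs per kb, among the 26 pairs below 20 CpGs per kb. Zbtb25/Zbtb1, with a zinc finger factor needed for lymphocyte development, held 4.4 RPM at 114 CpGs per kb. Both were listed in WT only, as were 417 of the 497 WT-marked pairs. Of 51 T cell genes outside pairs, 52.9% had a WT peak.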

How the data were processed

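ChIP-seq of Cxxc1 and of H3K4me3 was made from DP thymocytes of both genotypes, and input from WT cells. Per the submitters' processing notes, CASAVA 1.8.2 and SICER 1.1 were used on mm9, reads mapped to a single place were used per the methods, and the aligner is not given in the sources used here. The authors deposited, for 3 of the 5 libraries, the 200-bp windows of called peaks with RPM values (reads-per-million, 1 decimal), and windows outside peaks are not in these lists. WT and Cxxc1-deficient H3K4me3 depth was inferred from the RPM steps, at 9.42 to 9.47 M tags each, which sets the counting error of a value of 2.6 RPM at about 25 tags.

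Windows were joined into peaks over at most 2 missing windows. Gene 5′ ends came from the GENCODE annotation of NCBIM37 (mm9). A region had a peak with an overlap of at least 1 bp, and a window was summed where its midpoint lay in the region. Shares have 95% Wilson intervals, medians have order-statistic intervals and tag counts have exact Poisson intervals. No test was run, since each group had 1 library. The pairs, gene lists and comparisons were chosen with earlier results of these data known, and the motifs were chosen after the data were seen. Pairs were named by rule: the 8 with the highest value in each list, the 5 highest listed in 1 genotype only, every textbook pair found, every pair with a Cxxc1 peak, and the highest of each gene list. A few pairs that this rule picks are not reported here. The steps were tested on simulated data, where 200 of 200 planted pairs and 120 of 120 marked regions were found. Alternatives covered the distance limit, region length, overlap, window rule, peak joining, peak strength, CpG islands and copy families. Python 3.11.15, numpy 2.4.6, pandas 2.3.3, scipy 1.17.1 and matplotlib 3.10.9 were used.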

Additional observations from a re-analysis of the deposited data

How the results depend on the processing

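The pairs had a higher WT share than other promoters in 9 of 9 settings and a higher share still listed without Cxxc1 in 9 of 9. The Cxxc1 share of pairs and others had no stable order. Of 86 alternative values of 10 results under 10 settings, 72 stayed inside the interval of the reported value and 14 left it. Not all of these could move. Joining peaks over no missing window could not change a share, because every region is longer than the gaps, and its values equalled the main ones. The other promoters had 2001 bp in the main setting, so 2 kb for every region left them nearly the same. These counts therefore overstate how many alternatives were informative. With the stronger 50% of each list, fewer peaks were counted by construction, and the WT share was 45.6% of pairs and 17.3% of others, the Cxxc1-deficient share 7.98 and 2.77%, the Cxxc1 share 0.76 and 1.04%, and the share still listed 11.1% (8.27 to 14.8%) and 7.82% (6.96 to 8.76%), whose intervals overlapped. The Cxxc1 share of pairs was also below that of others with 2 kb for every region (1.39 and 1.64%), in CpG islands and without copy families (1.82 and 1.88%), while it was level in the full list. With CpG island regions only, the shares of other promoters were 47.3% in WT, 7.68% without Cxxc1 and 2.36% for Cxxc1, beside 65.6, 14.3 and 1.5% of pairs. Without copy families (symbols starting Hist, Olfr, Vmn, Gm or Zfp) the others had 32.9, 5.61 and 1.88%. The cause of these shifts was not tested. Merging overlapping pair regions and leaving out regions at peaks above 10 RPM were chosen after seeing the data. No paired analysis was possible because the groups hold a single library apiece, and for the same reason no replicate could be left out. Depth limits single pairs most: at about 25 tags in WT and 17 without Cxxc1, small differences in 1 pair were not detectable.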

Other observations

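Other arrangements of neighbouring starts were set beside the pairs per gene, with 1 kb on each side of its TSS. A WT H3K4me3 peak lay at 978 of 1562 genes of the pairs, 62.6% (60.2 to 65.0%). Genes whose 5′ ends overlapped that of a coding gene on the other strand by up to 1000 bp had one in 57.0% (53.5 to 60.4%) of 809. Genes with a noncoding partner within 1000 bp had one in 49.1% (44.3 to 53.8%) of 422, and those with a coding partner more than 1000 and up to 5000 bp away in 35.2% (31.9 to 38.7%) of 775. The remaining 17850 genes had one in 25.7% (25.1 to 26.4%).

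The share of WT-marked genes that also had a Cxxc1-deficient peak was 16% (13.8 to 18.4%) in the pairs and 14.5% (11.6 to 18%) in overlapping 5′ ends, with overlapping intervals. It was 12.1% (8.32 to 17.2%) with a noncoding partner, 8.06% (5.38 to 11.9%) with a coding partner more than 1000 and up to 5000 bp away and 10.6% (9.79 to 11.6%) in the remaining genes. Cxxc1 peaks lay at 1.47% (0.983 to 2.20%) of genes of the pairs and at 3.08% (1.81 to 5.20%) of genes with a noncoding partner, with overlapping intervals. The median CpG content was 66 CpGs per kb in the genes with overlapping 5′ ends, 72 in those with a noncoding partner, 40 in those with a distant coding partner and 33 in the remaining genes. Both genes of a pair share 1 region, so the genes counted are not independent.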
